A study of Mus musculus with 30 samples.

Results

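The effect of a vector meant to raise MCU was examined 7 days after injection, in 3 single muscle fibres that carried it and 4 that carried a control vector, 7 of the 30 fibres of the series. Fibres were taken by their titles, and all genes on the array were considered. The muscle was the extensor digitorum longus, a fast muscle of the hindlimb, in male CD1 mice aged 8 weeks, and each fibre was hybridised to a 1-colour Agilent array of its own. The muscles of both groups had been injected with an adeno-associated virus, and fibres were picked by the fluorescence of ZsGreen. The first group, AAVMCU, had been checked by quantitative PCR for raised MCU before hybridisation. The control group is titled AAVshLuc, while another label of the same fibres names a virus that carries no insert, and the sources used here do not settle which it was. Wild type fibres (4) and fibres with AAVshMCU, a vector to silence MCU (3), both of day 7, are given beside them. The labels name no animals, and the tests below therefore compare differences with the variation among fibres, some of which may share an animal, while the promoter of the vectors is not given in the sources used here.

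The MCU vector and control vector fibres lay on different slides, scanned on different days, and slide and group cannot be told apart. MCU vector and wild type fibres shared slide 1, while control vector and silencing vector fibres shared slide 3. For this reason many differences from the control vector are given with the difference from wild type on the same slide, or with the call against it. Even there, array position differed, with the MCU vector in columns 1 and 2 and wild type in columns 3 and 4.

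MCU is the pore of the uniporter, which lets calcium into the mitochondrial matrix, where it stimulates dehydrogenases that feed respiration. Many of the genes described below belong to the interferon response. Interferons act through receptors, kinases and transcription factors on a shared set of genes, among them antiviral effectors, the IRG and GBP families of GTPases that act on pathogen vacuoles, and the MHC class I pathway, which displays cytosolic peptides. Interferon gamma can also induce MHC class II, which most cells outside the immune system lack. Healthy muscle fibres are known for little MHC on their surface.

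The sequence of the Mcu probe is shown because the array's reading of the vector's target rests on this 1 probe. It lies at chr10:58929203-58929262 (mm9, minus strand).
Mcu probe: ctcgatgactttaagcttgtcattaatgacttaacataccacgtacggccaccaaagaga

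Promoter windows of 5 genes that were higher with the MCU vector are shown because they hold elements known to bind interferon-activated factors. Each window covers 250 bases before to 50 bases after the gene's start, from RefSeq (GRCm38.p6, plus strand), and lies at chr11:58199306-58199605 for Igtp, chr11:58214727-58215026 for Irgm2, chr3:142530086-142530385 for Gbp7, chr19:34583279-34583578 for Ifit3 and chr17:34197945-34198244 for Psmb8. Capitals mark the core of the interferon-stimulated response element, GAAANNGAAA, and the gamma-activated site, TTCNNNGAA, searched on both strands.
Igtp: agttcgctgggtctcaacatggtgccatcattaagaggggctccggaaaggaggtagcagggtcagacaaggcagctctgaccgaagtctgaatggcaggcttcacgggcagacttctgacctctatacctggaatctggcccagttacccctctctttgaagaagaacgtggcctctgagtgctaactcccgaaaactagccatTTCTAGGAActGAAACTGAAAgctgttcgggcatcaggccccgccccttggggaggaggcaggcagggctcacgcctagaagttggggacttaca
Irgm2: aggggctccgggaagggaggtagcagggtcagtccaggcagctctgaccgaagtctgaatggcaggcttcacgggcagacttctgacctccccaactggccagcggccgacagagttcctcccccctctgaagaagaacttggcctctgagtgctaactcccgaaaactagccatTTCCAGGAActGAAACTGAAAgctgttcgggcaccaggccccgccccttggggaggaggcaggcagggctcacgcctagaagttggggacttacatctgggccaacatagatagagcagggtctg
Gbp7: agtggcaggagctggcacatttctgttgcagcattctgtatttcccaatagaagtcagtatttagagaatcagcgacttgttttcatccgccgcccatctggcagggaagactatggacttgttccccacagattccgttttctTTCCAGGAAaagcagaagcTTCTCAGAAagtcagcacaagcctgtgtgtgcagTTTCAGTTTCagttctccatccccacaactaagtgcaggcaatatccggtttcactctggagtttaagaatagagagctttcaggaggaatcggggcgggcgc
Ifit3: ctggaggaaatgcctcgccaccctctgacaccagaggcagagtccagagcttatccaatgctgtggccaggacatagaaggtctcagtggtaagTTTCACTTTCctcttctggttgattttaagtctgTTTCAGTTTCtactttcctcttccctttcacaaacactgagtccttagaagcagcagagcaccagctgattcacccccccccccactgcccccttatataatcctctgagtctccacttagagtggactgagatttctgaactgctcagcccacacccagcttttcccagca
Psmb8: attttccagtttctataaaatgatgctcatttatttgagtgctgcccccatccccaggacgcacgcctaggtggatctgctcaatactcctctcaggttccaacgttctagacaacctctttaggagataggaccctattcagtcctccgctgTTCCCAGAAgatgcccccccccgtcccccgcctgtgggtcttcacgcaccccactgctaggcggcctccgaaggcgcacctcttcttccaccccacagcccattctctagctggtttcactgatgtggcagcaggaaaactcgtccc

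Igtp and Irgm2 each hold a gamma-activated site followed closely by a response element core, and Gbp7 holds both kinds. The marked letters of Ifit3 are response element cores, and those of Psmb8 a gamma-activated site. The core was found in 23 of 79 windows (29.1%) of the genes that were higher than in both control vector and wild type, of which 68 of 115 had a window. Among all genes tested it was found in 436 of 14512 windows (3.00%). All 7 windows of the IRG and GBP list held it, and these cover 7 of its 14 measured genes. The windows of Igtp and Irgm2 are nearly the same around their marked sites, so these shares can count related sequence more than once. The core was held by 6 of 18 windows of the antiviral list, 3 of 19 of the MHC class I list and 0 of 6 of the MHC class II list. The gamma-activated site was found in 11 of the 79 windows (13.9%), and in 1018 of the 14512 (7.01%). By list it was found in 6 of 7 IRG and GBP windows, 7 of 18 antiviral, 1 of 19 MHC class I and 0 of 6 MHC class II. A match is a description of the letters and not a binding site.

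Mcu itself differed by less than the test could call. In log2 signal relative to the 75th percentile of the array, the scale of every level below, Mcu had 3.62, 3.16 and 3.11 in MCU vector fibres, against 2.66, 2.30, 2.31 and 3.04 in control vector fibres. All 3 MCU vector fibres lay above all 4 control vector fibres. The log2 difference was 0.72 ± 0.41 (SE), or 1.64-fold, with an adjusted p of 0.269 in limma, which did not pass the threshold of 0.05. An exact 2-sided permutation test over the fibres gave p = 0.0571, the smallest that the 35 splits allow. Wild type fibres had 2.76, 2.50, 2.58 and 2.94, and the difference from wild type was 0.60 (adjusted p = 0.999). Silencing vector fibres had 1.30, -0.58 and 0.80, below all other fibres of day 7. Since fibres were selected on MCU by PCR, this value checks the labels and is not independent evidence. Whether the probe reads the vector's transcript is not given in the sources used here. At day 14 the difference by the same probe was larger by 3.11, as given below, and which transcript it read was not tested.

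Across all genes, 3244 of 23342 passed against the control vector (13.9%), of which 2165 were higher (9.28%) and 1079 lower (4.62%). These shares are the background for each count of list members against the control vector below. The balance of direction depends on the scaling: with arrays scaled by their median, 1263 were higher and 2008 lower, and the median difference of all genes was -0.14 in place of 0.03. At least a 2-fold difference besides was seen in 1002 genes that were higher (4.29%) and 400 that were lower (1.71%). The fibres of both groups did not overlap in 3486 genes that were higher (14.9%) and 2128 that were lower (9.12%), the background for each statement on overlap below. Without MCU vector fibre 2 the count was 1913, and without fibre 3 it was 1804. Against wild type on the same slide 134 genes passed (0.574%), 126 higher (0.54%) and 8 lower (0.0343%). Wild type against the control vector, which also lie on different slides, gave 4126 genes (17.7%), 2730 higher (11.7%) and 1396 lower (5.98%). The 2165 genes above the control vector had a median difference of 0.95 from the control vector and 0.09 from wild type, and the 1079 genes below it had -0.84 and -0.13. These comparisons share fibres and are given side by side for that reason only.

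**Figure D1:**
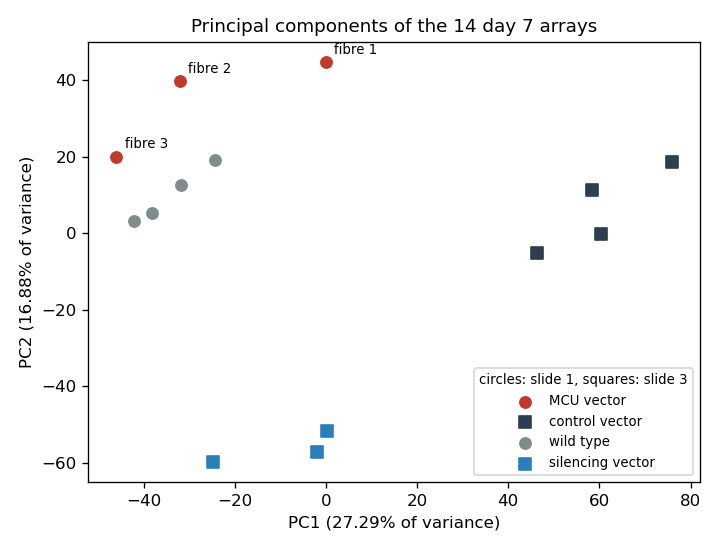
First and second principal components of the 14 arrays of day 7 (axes in component units, with the share of variance), with circles for slide 1 and squares for slide 3. Control vector fibres lie at 46.3 to 76.0 on the first component, apart from MCU vector fibres at -46.0 to -0.03, wild type fibres at -42.1 to -24.2 and silencing vector fibres at -24.8 to 0.15.

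The plot of principal components places MCU vector fibres 2 and 3 near wild type on the first component, and MCU vector fibre 1 between the wild type and control vector fibres, nearer to wild type. The control vector fibres also stood apart from the silencing vector fibres of their own slide.

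A set of immune genes was higher than in both groups. Of the 115 genes (0.493%) that passed against control vector and wild type in the same direction, all were higher with the MCU vector. Each gene was read by its brightest probe, and other probes did not always rise against the control vector. They gave as low as -0.40 for Cep162, -0.46 for Fgd4 and -0.24 for Dtd2, but 3.79 for Irgm1 and 6.81 for Gbp6. A gene symbol was held by 76 of the 115, against 13487 of the 23342 tested. The others mostly have names such as accessions, clones, Gm, LOC or Rik, and some may read related sequences. The count of genes lower in both was 0 in limma, against 202 lower and 285 higher at an unadjusted p below 0.05 in both, and limma with array weights gave 45 lower and 165 higher. The 115 genes had a median difference of 2.50 from the control vector and 2.96 from wild type, and 44 of them are in the immune lists, which hold 93 of the genes tested. The lists were chosen with earlier results of these data known, so nothing is read from that overlap.

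**Figure D2:**
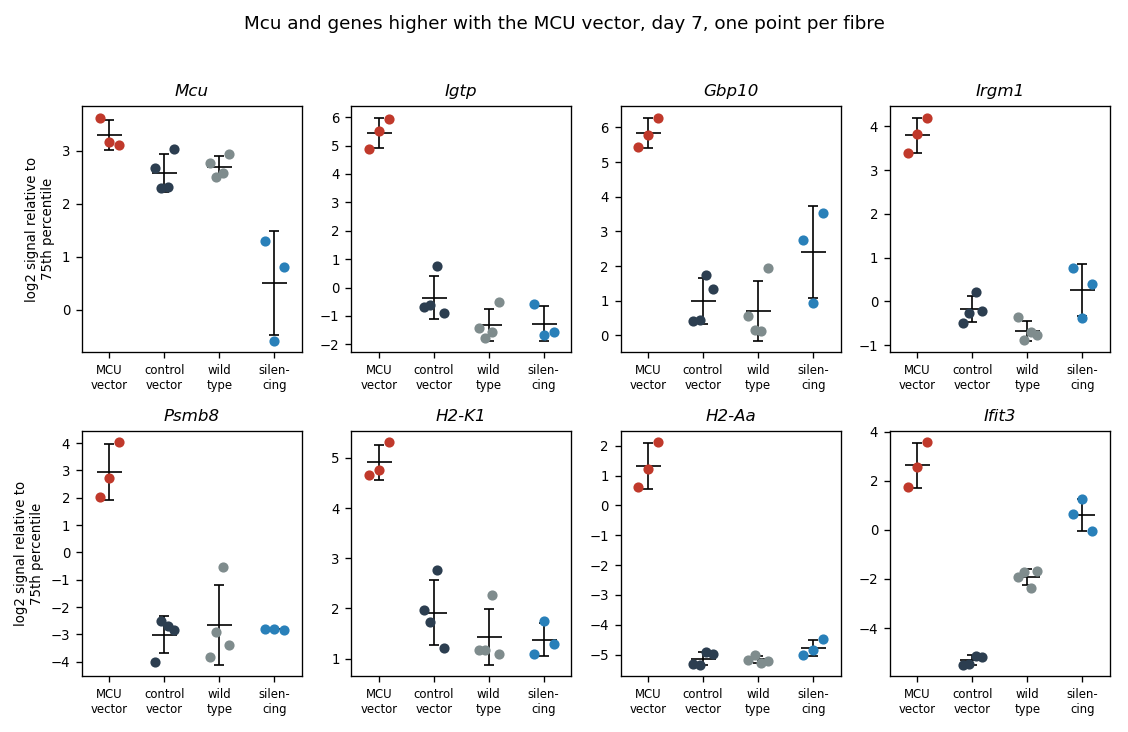
Log2 signal relative to the 75th percentile of the array (vertical axes) of Mcu and 7 immune genes in every fibre of day 7, by group, with bars for mean and SD. In each of the 7 immune genes the 3 MCU vector fibres lie above all control vector fibres, as in Igtp at 4.86 to 5.94 against -0.89 to 0.75.

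Of the lists examined, the IRG and GBP GTPases had the largest share of members that rose. Of 14 measured genes 12 rose and none fell, both against the control vector and against wild type. Their median difference from the control vector was 3.86, against 0.03 over all genes tested, and leaving out any 1 MCU vector fibre left 12. Where probes had to be above background on all arrays compared, 6 rose. Igtp, an IRG GTPase also called Irgm3, had 4.86, 5.52 and 5.94 in MCU vector fibres, against -0.67, -0.60, 0.75 and -0.89 in control vector fibres. Wild type fibres had -1.42, -1.79, -1.56 and -0.52 and silencing vector fibres -0.57, -1.67 and -1.56. No fibre outside the MCU vector group came within 4 units of the lowest MCU vector fibre. The difference from the control vector was 5.79 ± 0.51 (55.4-fold, adjusted p = 3.08e-08), and that from wild type 6.76 (adjusted p = 2.36e-09).

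Irgm1 and Irgm2, which regulate other IRG proteins, both rose. Irgm1 had 3.40, 3.82 and 4.19 in MCU vector fibres, against -0.48, -0.25, 0.22 and -0.21 in control vector fibres, a difference of 3.98 ± 0.41. Irgm2 had 5.48, 5.84 and 6.05 in MCU vector fibres, against 1.37, 1.43, 2.68 and 1.54 in control vector fibres, a difference of 4.04 ± 0.52. In neither gene did the groups overlap. Iigp1b was not well above background on any control vector array and was at least 32-fold higher with the MCU vector, while Iigp1 rose by 3.03 ± 0.18. Tgtp1 and Tgtp2, which are near-identical, rose by 2.94 and 2.87, and signal may be shared within such pairs. Tgtp1 was well above background on 1 of 4 control vector arrays and Tgtp2 on 3 of 4. Sizes differed between probes, and the other probes of Iigp1 and Tgtp2 gave 8.46 and 8.26.

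Among guanylate-binding proteins, Gbp10 had 5.43, 5.78 and 6.28 in MCU vector fibres, against 0.42, 0.45, 1.74 and 1.33 in control vector fibres. Silencing vector fibres had 2.75, 0.95 and 3.54, still below every MCU vector fibre. The difference from the control vector was 4.85 ± 0.59 (28.8-fold, adjusted p = 4.71e-06), and from wild type 5.13. Gbp6, Gbp7 and Gbp11 rose by 5.81 ± 0.75, 3.75 ± 0.49 and 6.14 ± 1.29, with Gbp6 and Gbp11 each well above background on 2 of 4 control vector arrays. Gbp6 and Gbp10 are close copies, so their separate values are uncertain. Gbp5 had 3.05, 3.01 and 2.94 in MCU vector fibres, against 2.96, 3.04, 2.83 and 2.82 in control vector fibres, and neither it nor Gbp9, at a difference of 0.06, passed.

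MHC class I genes and those that load it with peptide rose in 15 of 21 cases and fell in none, with a median difference of 2.22, or 1.80 with the 1 gene dim in all control vector fibres at its bound. With normexp background correction the median was 1.17. Against wild type 13 rose. H2-K1, a classical heavy chain, had 4.66, 4.75 and 5.32 in MCU vector fibres, against 1.96, 1.72, 2.76 and 1.21 in control vector fibres. The lowest MCU vector fibre lay well above the highest control vector fibre, and the difference was 3.00 ± 0.31 (adjusted p = 4.46e-07), with 3.49 from wild type. B2m, the light chain, had 4.14, 4.12 and 4.58 in MCU vector fibres, against 1.81, 1.87, 3.44 and 1.12 in control vector fibres, a difference of 2.22 ± 0.36. H2-D1, a classical heavy chain, and H2-T23, a non-classical one, rose by 2.64 and 2.59. Heavy chain genes are similar enough that their probes may share signal.

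The immunoproteasome, a form of the proteasome that cuts peptides suited to class I, rose in each of its catalytic subunits. Psmb8 had 2.03, 2.72 and 4.04 in MCU vector fibres, against -4.01, -2.52, -2.69 and -2.82 in control vector fibres (well above background on 1 of 4 arrays), a difference of 5.94 ± 0.64 (adjusted p = 8.45e-07). Psmb9 had 1.79, 2.14 and 3.11 in MCU vector fibres, against -0.28, -0.26, -0.35 and -0.24 in control vector fibres, a difference of 2.63 ± 0.19. Psmb10 rose by 1.60 ± 0.18. By contrast, none of 31 measured genes of the proteasome list passed in either direction by limma, with 0 higher and 2 lower at an unadjusted p below 0.05. Tap1, part of the transporter that carries peptides into the endoplasmic reticulum, was dim in all control vector fibres and at least 3.49-fold higher with the MCU vector. Tapbp, which holds class I near the transporter, rose by 1.52 ± 0.32. The general chaperones Calr and Pdia3 differed by -0.06 and -0.38 and did not pass, nor did Nlrc5, an activator of class I genes, at 0.36.

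MHC class II was raised in 6 of 8 measured genes and lowered in none, against both groups, with a median difference of 4.76 from the control vector, or 3.96 with 3 genes at their bound. The size depends on the background correction, with a median of 1.98 under normexp, and where probes had to be above background on all arrays compared 2 rose, with a median of 1.24. H2-Aa, the alpha chain of I-A, had 0.61, 1.21 and 2.12 in MCU vector fibres, against -5.31, -5.33, -4.90 and -4.97 in control vector fibres. It was not well above background on any control vector array and was at least 22.4-fold higher with the MCU vector (adjusted p = 2.25e-06), and at least 23.6-fold higher than in wild type. H2-Ab1, the beta chain, had 2.09, 2.57 and 3.29 in MCU vector fibres, against -2.54, -2.19, -2.15 and -2.41 in control vector fibres, a difference of 4.97 ± 0.47. Cd74, the invariant chain that guards the peptide groove, had 2.06, 2.62 and 3.93 in MCU vector fibres, against -3.38, -2.28, -2.61 and -2.49 in control vector fibres (well above background on 3 of 4 arrays), a difference of 5.56 ± 0.44. The groups did not overlap in any of these genes. H2-DMa and H2-DMb1, which exchange peptides, rose by 2.05 and by at least 18.3-fold. Ciita, the transactivator of class II genes, had 3.51, 3.56 and 3.57 in MCU vector fibres, against 3.11, 3.14, 3.08 and 3.34 in control vector fibres. Its groups did not overlap, but its difference of 0.38 did not pass. At an unadjusted p below 0.05 in limma all 8 measured genes of the list were higher than in the control vector.

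Because class II is a property of antigen-presenting cells, markers of other cells were set beside it. Macrophage and myeloid markers summed to 8.34 to 8.40 in MCU vector fibres, against 7.89 to 8.13 in control vector fibres and 8.19 to 8.45 in wild type fibres. Of 10 measured, Itgam and Fcer1g rose by 0.37 and 1.64, Adgre1 fell, and against wild type none passed. Fcer1g was well above background on 2 of 3 MCU vector arrays and 1 of 4 control vector arrays, Adgre1 on 0 of 3 and 1 of 4, and another Itgam probe gave -0.20. Ptprc, the leukocyte common antigen, ranged from -1.04 to -0.49 in MCU vector fibres, against -0.60 to -0.29 in control vector fibres. Its difference of -0.43 did not pass. Tyrobp, C1qc, Mrc1 and Cd163 were below the filter on dim probes. T, B and NK cell markers summed to 3.30 to 3.41 in MCU vector fibres, against 2.92 to 3.12 in control vector fibres and 3.40 to 3.56 in wild type fibres, with Cd4 and Prf1 of 8 measured higher. Cd3d, Cd3g, Cd8b1, Ms4a1 and Cd79a were below the filter. Muscle fibre markers summed to 10.34 to 10.46 in MCU vector fibres, against 10.31 to 10.49 in control vector fibres and 10.24 to 10.44 in wild type fibres, and of 9 only Des, a muscle intermediate filament, passed, with a rise of 0.42 ± 0.13. Fewer cells of a type and less RNA per cell cannot be told apart in such material, and the part of these markers in the immune genes was not tested.

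Antiviral genes of the interferon response rose in 11 of 20 measured cases and fell in none, with a median difference of 0.86. The median was 0.46 under normexp, and with probes above background on all arrays compared 5 rose. Against wild type 7 rose. Ifit3, which binds foreign RNA with its relatives, had 1.76, 2.54 and 3.58 in MCU vector fibres, against -5.52, -5.46, -5.12 and -5.17 in control vector fibres, where it was not above background on any array, and was at least 55.6-fold higher with the MCU vector. Its level was -1.91, -1.70, -2.36 and -1.66 in wild type fibres and 0.64, 1.25 and -0.05 in silencing vector fibres. The control vector fibres were thus the lowest of all groups in this gene, and the difference from wild type was 4.54 (adjusted p = 6.02e-09). Parp14, an ADP-ribosyltransferase, had 2.01, 2.66 and 3.39 in MCU vector fibres, against -3.38, -2.91, -2.28 and -4.91 in control vector fibres (well above background on 1 of 4 arrays), a difference of 6.06 ± 0.64. Xaf1, a partner of the apoptosis inhibitor XIAP, was at least 8.74-fold higher. Usp18, which removes ISG15 from proteins, and Dtx3l, a ubiquitin ligase, rose by 3.08 ± 0.49 and 2.38 ± 0.32, with Usp18 well above background on 1 of 4 control vector arrays.

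Several well-known members did not pass the threshold. All 20 measured antiviral genes had a positive difference from the control vector, against 12416 of the 23342 genes tested. At an unadjusted p below 0.05 in limma 14 were higher and 0 lower. Isg15, a ubiquitin-like modifier, had -0.52, -0.23 and -0.33 in MCU vector fibres, against -0.79, -0.92, -0.62 and -0.78 in control vector fibres. The groups did not overlap, but its difference of 0.42 did not pass (adjusted p = 0.136 in limma). Mx2, Oas1a and Bst2 differed by 0.76, 0.14 and 0.23 and did not pass. Ifit1, Ifit2, Mx1, Oas3, Oasl2 and Ifi44 were below the filter.

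In interferon signalling, 6 of 20 measured genes rose and none fell, with a median difference of 0.29. The median was 0.14 without MCU vector fibre 3, 0.17 under normexp and 0.13 under median scaling. Without MCU vector fibre 1, 5 rose and 1 fell, and with probes above background on all arrays compared 3 rose. Irf7, a factor that amplifies the response, had -0.45, -0.42 and 1.35 in MCU vector fibres, against -2.67, -2.80, -2.85 and -2.55 in control vector fibres (well above background on 3 of 4 arrays), a difference of 2.88 ± 0.40. Irf9, a DNA-binding factor of the response, had 2.07, 2.13 and 2.41 in MCU vector fibres, against -0.86, -0.29, 0.49 and -0.69 in control vector fibres, a difference of 2.54 ± 0.38. Both also passed against wild type. Stat2 and the RNA sensor Ifih1 rose by 2.13 and 2.61, Ifih1 with 3 of 4 control vector arrays well above background. Irf1, an early target of interferon gamma, had 3.61, 3.42 and 4.07 in MCU vector fibres, against 3.36, 3.46, 3.18 and 3.48 in control vector fibres, and 1.58, 1.36, 2.20 and 1.55 in wild type fibres. It passed against wild type, at 2.03 (adjusted p = 0.0228), but not against the control vector, at 0.33. The receptor genes Ifnar1, Ifnar2, Ifngr1 and Ifngr2 did not pass in either comparison.

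Chemokines did not move together. Of 10 measured chemokines and checkpoint ligands, Cd274 (PD-L1) and Cxcl9 rose and Cxcl10 fell. Without MCU vector fibre 3 Cxcl9 did not pass and 1 rose. Cd274, a ligand that restrains T cells, was dim in all control vector fibres and at least 8.17-fold higher with the MCU vector. Cxcl10, a T cell chemoattractant, had -1.56, -5.31 and -4.99 in MCU vector fibres (well above background on 1 of 3 arrays), against 2.61, 0.69, -0.31 and 2.51 in control vector fibres, a difference of -5.33 ± 1.13. Wild type fibres had -5.03, -4.93, -5.14 and -5.11, as low as MCU vector fibres 2 and 3.

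**Figure D3:**
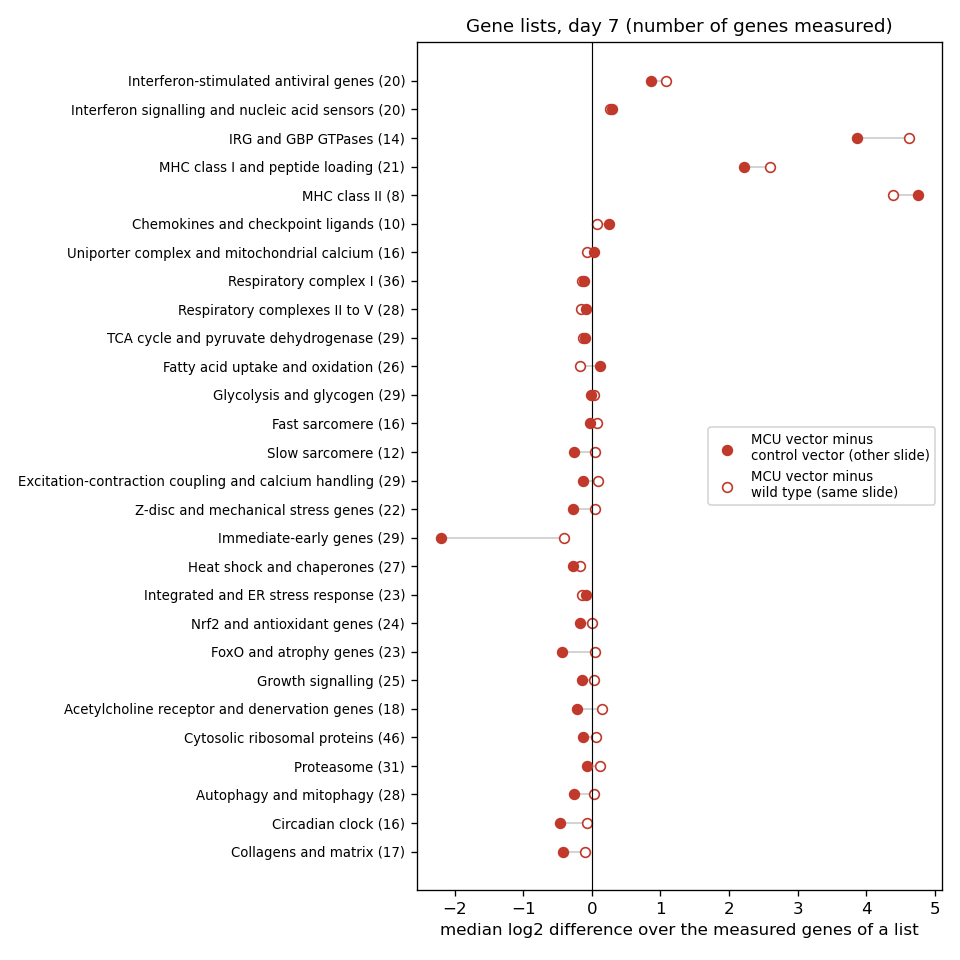
Median log2 difference over the measured genes of each list (horizontal axis), for the MCU vector minus control vector on another slide (filled) and minus wild type on the same slide (open). The IRG and GBP, MHC class I and MHC class II lists lie above 2 in both, while the immediate-early list lies at -2.20 against the control vector and -0.41 against wild type.

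Genes lower with the MCU vector than with the control vector included many immediate-early genes, which cells switch on within minutes of a stimulus. Of 29 measured 20 fell and none rose, with a median difference of -2.20. Against wild type none passed by limma, with 1 higher and 2 lower at an unadjusted p below 0.05, and the median was -0.41. Wild type was itself lower than the control vector in 14 of the 29. The count rests on the MCU vector fibres unequally: it was 22 without fibre 1, 13 without fibre 2 and 9 without fibre 3. Fibre 1 was nearer to the control vector mean than to the mean of fibres 2 and 3 in 27 of the 29 genes, against 9534 of the 23342 genes tested (40.8%). With only the compared arrays in the fit, 6 fell, and with probes above background on all arrays compared, 13.

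Maff, a small MAF factor, had 2.13, -4.69 and -5.15 in MCU vector fibres (well above background on 1 of 3 arrays), against 2.36, 3.24, 3.24 and 2.74 in control vector fibres. Levels in wild type were -1.19, -1.20, -1.72 and -1.40 and in silencing vector fibres 1.16, -0.67 and -0.35. MCU vector fibre 1 was thus close to the control vector fibres and the other MCU vector fibres far below, with a difference of -5.47 ± 1.08 (adjusted p = 0.0013 in limma). That SE rests on a spread pooled over all 8 groups. With only the compared arrays in the fit Maff did not pass (adjusted p = 0.0861 in limma). Klf4, a zinc-finger factor, had -0.99, -4.15 and -5.37 in MCU vector fibres (well above background on 1 of 3 arrays), against 1.01, 0.74, 0.47 and 1.34 in control vector fibres, a difference of -4.39 ± 0.80. Nr4a3, an orphan nuclear receptor induced by exercise in muscle, had 0.05, -2.69 and -3.86 in MCU vector fibres (well above background on 2 of 3 arrays), against 0.88, 1.59, 1.09 and 1.95 in control vector fibres, a difference of -3.54 ± 0.60. Nr4a1, its relative, had 4.50, 3.52 and 2.98 in MCU vector fibres, against 5.17, 5.37, 5.19 and 5.30 in control vector fibres, a difference of -1.59 ± 0.23. In each of these genes the groups did not overlap and fibre 1 was the highest MCU vector fibre. Fosb, Junb and Egr1 fell by 2.63 ± 0.62, 2.27 ± 0.52 and 1.33 ± 0.44.

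**Figure D4:**
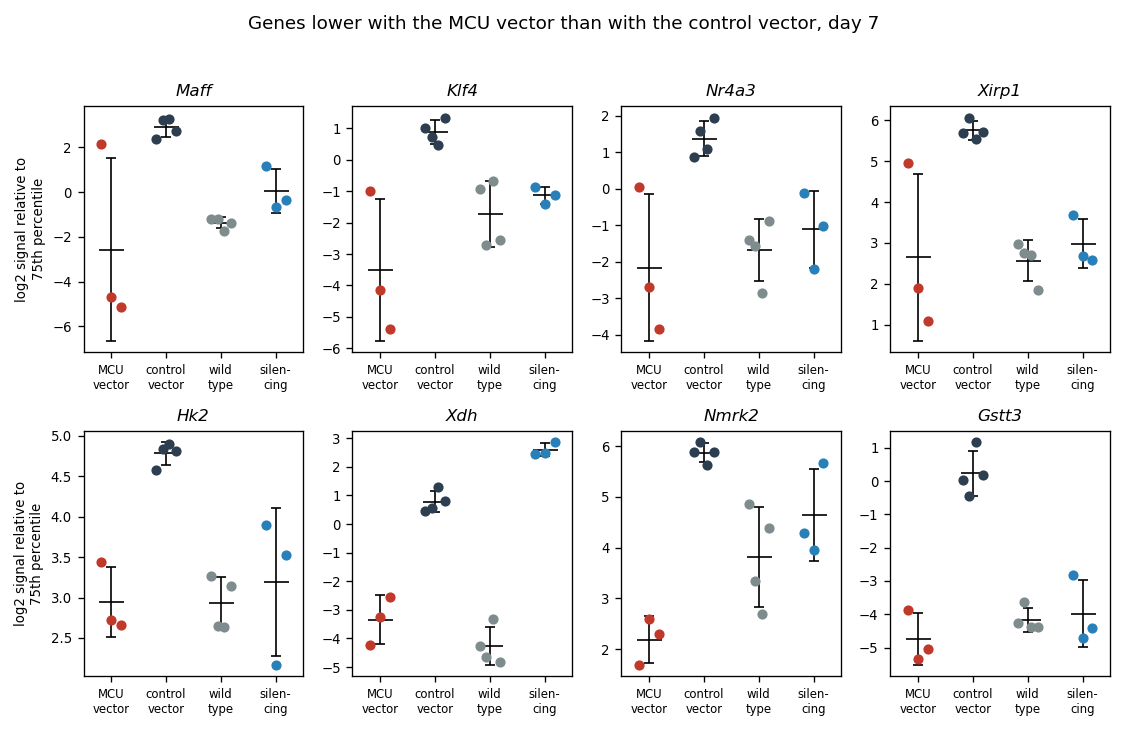
Log2 signal relative to the 75th percentile of the array (vertical axes) of 8 genes lower with the MCU vector than with the control vector, in every fibre of day 7 by group, with bars for mean and SD. In Maff, Klf4, Nr4a3 and Xirp1 fibre 1 is the MCU vector fibre nearest to the control vector fibres, and in Hk2, Xdh and Gstt3 wild type fibres lie near the MCU vector fibres.

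Stress-responsive genes of the sarcomere's Z-disc fell in 4 of 22 cases and rose in none. Xirp1, an actin-binding repair protein, had 4.95, 1.89 and 1.09 in MCU vector fibres, against 5.69, 6.06, 5.53 and 5.70 in control vector fibres, a difference of -3.10 ± 0.68. Ankrd1, Flnc and Smpx, which respond to mechanical load, fell by 3.44 ± 0.84, 1.90 ± 0.53 and 0.93 ± 0.28. None passed against wild type, and the count was 1 without MCU vector fibre 3 or with only the compared arrays. Wild type was itself lower than the control vector in 5 of the 22 genes and higher in 0. None of 16 fast sarcomere genes passed by limma, with 1 higher and 0 lower at an unadjusted p below 0.05. Myl3, a slow light chain, was the 1 of 12 slow sarcomere genes that rose. It was not well above background on any control vector array and was at least 2.08-fold higher with the MCU vector, but did not pass without MCU vector fibre 2, with normexp or with only the compared arrays.

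Few genes of glucose use differed. Of 29 genes of glycolysis and glycogen, Hk2, Slc2a1 and Pgam1 fell and none rose. Over all genes tested 4.62% were lower and 9.28% higher, so no result about glucose use is read from this count. Hk2, the insulin-responsive hexokinase of muscle, had 3.44, 2.73 and 2.66 in MCU vector fibres, against 4.58, 4.83, 4.90 and 4.82 in control vector fibres. In wild type it had 3.27, 2.65, 2.64 and 3.14. MCU vector and wild type fibres were at about the same level, with a difference of 0.02, and the control vector fibres were above both, with a difference of -1.84 ± 0.28 (adjusted p = 1.21e-04). Slc2a1, a glucose transporter, and Pgam1, a glycolytic mutase, fell by 2.17 ± 0.59 and 0.98 ± 0.26. Slc2a1 did not pass without MCU vector fibre 2 or fibre 3, nor without control vector fibre 3. No gene of the list passed against wild type. Wild type was itself lower than the control vector in 4 of the 29 genes and higher in 0.

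Xdh, Gstt3 and Nmrk2 were among the largest falls of single genes. Xdh, which makes uric acid, had -4.23, -3.24 and -2.55 in MCU vector fibres (well above background on 2 of 3 arrays), against 0.47, 0.55, 1.31 and 0.80 in control vector fibres. It had -4.28, -4.64, -3.33 and -4.83 in wild type fibres and 2.46, 2.48 and 2.87 in silencing vector fibres, so the groups of slide 3 were high and those of slide 1 low, with a difference of -4.13 ± 0.47. Gstt3, a glutathione transferase, had -3.86, -5.34 and -5.04 in MCU vector fibres, against 0.02, -0.44, 1.17 and 0.17 in control vector fibres, and was not well above background on any MCU vector array. It was at least 14.9-fold lower with the MCU vector. Nmrk2, a kinase of NAD synthesis from nicotinamide riboside, had 1.68, 2.59 and 2.29 in MCU vector fibres, against 5.89, 6.08, 5.62 and 5.88 in control vector fibres, a difference of -3.68 ± 0.44 (adjusted p = 3.78e-06). Wild type fibres had 4.87, 3.34, 2.70 and 4.40, all above the MCU vector fibres, but that difference of -1.64 did not pass (adjusted p = 0.138).

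Csrnp1, Osgin1, Map3k8 and Sphk1 fell by 4.58 ± 1.09, 4.29 ± 0.83, 3.64 ± 0.74 and 3.60 ± 0.61. Csrnp1 was well above background on 2 of 3 MCU vector arrays and Map3k8 on 1 of 3. Csrnp1 did not pass without MCU vector fibre 3, and the other Sphk1 probe gave -6.10. With only the compared arrays in the fit, Csrnp1, Osgin1 and Map3k8 did not pass. Map3k8 is a kinase of inflammatory signalling and Sphk1 makes sphingosine 1-phosphate. No gene was called lower against both control vector and wild type, these genes included.

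Among genes of muscle breakdown under FoxO, 7 of 23 fell and none rose, against 0 in either direction relative to wild type. The count was 8 without MCU vector fibre 1 and 2 without fibre 2 or fibre 3, 4 without control vector fibre 2 or fibre 3, and 2 with only the compared arrays. Trim63 (MuRF1), a ubiquitin ligase of sarcomere proteins, had 2.34, 1.40 and 1.42 in MCU vector fibres, against 3.79, 4.07, 3.72 and 3.18 in control vector fibres, a difference of -1.97 ± 0.32. Fbxo30, another ubiquitin ligase, fell by 1.79 ± 0.35. Of 24 Nrf2 and antioxidant genes 5 fell and Gsta4 rose, but 0 rose without MCU vector fibre 3 or without control vector fibre 4, and with only the compared arrays 0 rose and 1 fell. Hmox1, which breaks down haem, had 2.99, 0.41 and 0.11 in MCU vector fibres, against 3.40, 4.20, 3.62 and 3.36 in control vector fibres, a difference of -2.47 ± 0.53. Mt1, a metal-binding protein, Nfe2l2, the factor itself, and Txnrd1 fell by 3.19 ± 0.60, 1.44 ± 0.30 and 1.22 ± 0.21. In growth signalling, Irs2, an insulin receptor substrate, and Ppargc1a, a coactivator of mitochondrial genes, fell by 2.28 ± 0.36 and 1.54 ± 0.35 among 25 measured. Over all genes tested 4.62% were lower. Against wild type no gene of the Nrf2 or growth lists passed. Wild type was itself lower than the control vector in 8 of the 24 Nrf2 genes and higher in 1. It was lower in 3 of the 25 growth genes and higher in 0. Of the 23 FoxO genes it was lower in 8 and higher in 0.

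Clock genes moved in both directions, with 2 of 16 higher and 6 lower. Dbp and Per3, outputs of the clock, rose by 1.13 ± 0.21 and 1.53 ± 0.35, while Nfil3 and Bhlhe40 fell by 1.55 ± 0.31 and 1.44 ± 0.27. None of these passed against wild type, and 2 genes were lower without MCU vector fibre 2 or fibre 3, 3 without control vector fibre 3 or fibre 4 and 1 with only the compared arrays, where 0 were higher. In the stress response list 3 of 23 rose and 3 fell, where 9.28% of all genes tested were higher and 4.62% lower. Gdf15, Fgf21 and Ddit4 were the rises. The falls became 0 without MCU vector fibre 2 and 1 without MCU vector fibre 3 or control vector fibre 2 or fibre 3. Fgf21 was not well above background on any control vector array and was at least 1.24-fold higher, and it did not pass with normexp. Ddit4 was well above background on 2 of 4 control vector arrays and did not pass in 8 of 19 other settings. Of 18 acetylcholine receptor and denervation genes 4 fell, the factor Runx1 by 2.99 ± 0.78, and none fell without MCU vector fibre 2 or fibre 3, while 1 fell without control vector fibre 2 and 2 without control vector fibre 3. Runx1 was well above background on 1 of 3 MCU vector arrays. Of 46 cytosolic ribosomal protein genes 4 fell, where 4.62% of all genes tested were lower. The count was 0 without MCU vector fibre 2, 1 without fibre 3 and 2 without fibre 1. It was 1 to 2 without control vector fibre 1, 2 or 3. Against wild type no gene of the stress response, receptor and denervation or ribosomal lists passed. Wild type was itself lower than the control vector in 8 of the 18 receptor and denervation genes and higher in 1. It was lower in 1 of the 23 stress response genes and higher in 5. Of the 46 ribosomal genes it was lower in 3 and higher in 0, and of the 16 clock genes lower in 5 and higher in 2.

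Mitochondrial genes differed little. None of 16 genes of the uniporter complex and mitochondrial calcium handling passed by limma, with 0 higher and 1 lower at an unadjusted p below 0.05, and their median difference of 0.03 changed sign under median scaling. In respiratory complex I, Ndufs5, Ndufv3 and Ndufs4 of 36 measured fell, by 0.68 ± 0.12, 0.45 ± 0.12 and 0.58 ± 0.16, and without MCU vector fibre 1 or fibre 2 the count was 1. Over all genes tested 4.62% were lower. Another probe of Ndufv3 gave 0.14. Of complexes II to V none of 28 passed by limma, with 0 higher and 1 lower at an unadjusted p below 0.05. Only 1 of the 28, Atp5pb, belongs to ATP synthase (complex V), since 13 listed ATP synthase genes were not matched by name to the array and are not analysed here. The TCA cycle and pyruvate dehydrogenase gave none of 29 by limma, with 1 higher and 1 lower unadjusted. Against wild type no gene of these lists passed.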

How the data were processed

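Single fibres had been freed with collagenase, their RNA put through whole-transcriptome amplification and labelling with random primers, so strand was not kept, per the labels' protocols. Spot intensity was deposited as scanner output of Agilent Feature Extraction 10.7.3.1, per the file headers, with the signal background-subtracted and detrended within each array. The deposited flags, 0 or 1 per spot, mark spots above background. Here, log2 of the deposited processed intensity of 59305 non-control spots (55681 probes, replicate spots averaged) was taken relative to each array's 75th percentile. The filter on dim probes kept those detected above background on 3 or more arrays of some group (33164), and the brightest probe by mean stood for each gene (23342 genes). Names came from RefSeq by accession (26425 probes), symbol (3988) or synonym (826), and otherwise from the file.

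limma 3.58.1 in R 4.3.3 was fitted to 8 group means of all 30 arrays (22 residual degrees of freedom), with Benjamini-Hochberg adjustment and a threshold of 0.05. The fit was tested on simulated data. These had the same spread of a gene in every group and no slide effect, so they cannot show how either affects the calls. Bounds ("at least") set a group that was not well above background on any array to the lowest detected signal of each array. The 75th percentile of intensity was 118.8 to 135.3 on MCU vector arrays, against 106.6 to 128.3 on control vector arrays, and 55.6% to 58.7% of probes were above background, against 51.0% to 55.5%; the number of arrays limits the precision. Named genes were Mcu, the 12 largest rises and falls with a gene symbol and a detected brighter group, the 12 largest in each direction that passed against both groups, and up to 4 per list by p; other list members are named as members of lists. Members of lists, the lists and the comparison were chosen with earlier results of these data known. Some list members are not reported here. Alternatives covered scaling, background correction, the deposited value table (linear intensity), filters, probes, samples, array weights, a covariate and left-out fibres.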

Additional observations from a re-analysis of the deposited data

Results flagged for a closer look

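The difference between MCU vector and control vector was not the same at day 14 as at day 7 in 31 of 127 genes examined, by limma's test of the difference itself (adjusted p below 0.05), against 625 of 23342 genes tested (2.68%). The genes examined were largely chosen for their day 7 differences, so nothing is read from that count. The day 14 groups lay on slides 2 and 4, so day and slide cannot be told apart. Values below are the difference at day 14 minus that at day 7, in log2. Mcu gave 3.11, with a day 14 level of 6.38 ± 0.35 in MCU vector fibres and 2.56 ± 0.21 in control vector fibres (SD, n = 4 each). Among IRG and GBP GTPases the values were -5.70 for Igtp, -5.72 for Irgm1, -3.09 for Iigp1, -6.57 for Iigp1b, -5.30 for Gbp6 and -4.26 for Gbp10. Igtp stood at 0.13 ± 1.05 in MCU vector fibres and 0.05 ± 0.37 in control vector fibres at day 14. In the MHC class I pathway they were -1.68 for H2-K1, -1.88 for H2-T23, -3.84 for Tap1, -4.43 for Psmb8 and -2.38 for Psmb9. MHC class II gave -5.52 for H2-Aa, -3.63 for H2-Ab1, -2.73 for H2-Eb1, -4.49 for H2-DMb1 and -3.60 for Cd74. Antiviral genes gave -8.18 for Ifit3, -6.67 for Ifit3b, -4.51 for Parp14, -5.24 for Xaf1 and -1.91 for Dtx3l. Signalling and checkpoint genes gave -2.35 for Irf7, -3.05 for Irf9, -2.57 for Ifih1 and -4.85 for Cd274. Outside the immune lists they were 3.20 for Xdh, 2.89 for Nmrk2, -1.37 for Pdk1, 1.42 for Camk2d and -1.04 for Dbp. For Iigp1b, Tap1, H2-Aa, H2-Eb1, H2-DMb1, Ifit3, Ifit3b, Parp14, Xaf1 and Cd274 all arrays of 1 or more of the 4 groups were dim, so these values are fitted differences that rest in part on background and give no measured size.

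In 5 of 127 genes a single control vector fibre of day 7 lay far from the other 3, by Dixon's test, where chance flags about 1 in 20. The fibre that stood apart had 3.79 in Ndufs5, 5.88 in Cox5a, 3.67 in Camk2d, 0.896 in Nfe2l2 and 3.53 in Dbp.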

How the results depend on the processing

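The 3244 genes that passed against the control vector became 1402 with a 2-fold minimum, 1334 with only the compared arrays and 5192 with array weights, and 1804 to 3207 with 1 fibre left out. The share that was higher, 66.7%, was 38.6% with median scaling, 75.5% with scaling on detected probes and 56.1% with normexp. Against wild type the 134 genes became 343 with array weights, and 115 to 131 with 1 fibre left out. For wild type against the control vector the 4126 genes became 1664 with a 2-fold minimum and 3035 to 4111 with 1 fibre left out, and median scaling gave 1546 higher and 2685 lower. The 115 genes that passed against both became 74 where probes had to be detected on all arrays, 210 with array weights and 97 to 118 with 1 fibre left out. Mcu's difference stayed between 0.55 and 0.87, also with 1 fibre left out, and did not pass in any setting. Of 2508 pairs of a named gene and a setting, 2262 kept direction and call, 189 lost the call, 50 gained it and 7 changed sign with no call in either fit (Letm1, Tnni2 and Tnnt3), while no called difference changed sign; the fit on only the compared arrays lost the most, 35. The cause of these changes was not tested. Fibre numbers did not pair the samples (correlation of deviations 0.0017, -0.0444 and -0.0603), and with the replicate block the counts were 2945, 136, 4030 and 118, and Mcu's difference 0.82 (adjusted p = 0.194 in limma). Slide could not enter as a term, since each group lay on 1 slide. Genes near background have only a bound, and 3 against 4 fibres limit the precision.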
